A study of Homo sapiens with 16 samples.

Results

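The expression profile of GIST-T1 cells treated with siRNA against ZNF43 was measured on 1 Affymetrix Human Exon 1.0 ST array, chosen by its label as 1 of 16 arrays in the series. GIST-T1 is an established gastrointestinal stromal tumor cell line with a heterozygous mutation in KIT. The comparison arrays were 2 of the same cells given a non-targeting siRNA (siCON), labelled 24 h and 72 h, and 13 on which another gene was silenced: GTF2I (labelled GTF21), RASSF8, IGFBP2, IGF2R or one of the zinc finger genes ZNF708, ZNF665, ZNF528, ZNF431, ZNF429, ZNF254, ZNF100, ZNF91 and ZNF85. Every array was of cells reverse transfected with 50 nM siRNA, and a gene was targeted in the screen by pooled siRNAs. No source used here states when the knockdown cells were harvested or whether the arrays came from separate cultures, and the study's text gives a different time for the siCON array labelled 24 h. With 1 ZNF43 array there was no replicate check and no p-value was computed. Its values were set against the mean of the siCON arrays, as a log2 fold change, and against the range of all 15 other arrays. The distance beyond that range is called the gap and is 0 for a value within it. In such bulk samples, fewer cells expressing a gene and less RNA per cell cannot be told apart.

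ZNF43 encodes a Krüppel-associated box (KRAB) zinc finger protein of the gene cluster in the short arm of chromosome 19. KRAB zinc finger proteins bind DNA through arrays of zinc fingers and recruit the TRIM28 corepressor, which brings histone-modifying enzymes and silences nearby sequence. Gastrointestinal stromal tumors share the lineage of the interstitial cells of Cajal, the pacemaker cells of the gut, and most of them depend on KIT. The study asked which transcripts change when a gene that sensitizes these cells to the KIT inhibitor imatinib is silenced.

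The ZNF43 transcript cluster was at 9.77 log2 units on its own array, against 10.39 and 10.23 on the siCON arrays at 24 h and 72 h, a log2 fold change of -0.54. On the 13 other knockdown arrays it ranged from 9.55 to 10.75, with a median of 10.07. Its own array was the third lowest of the 16, since the ZNF91 array (9.55) and the GTF2I array (9.71) were lower. Of the 13 silenced genes that a transcript cluster names, 11 were at their lowest on their own array, and ZNF43 and ZNF100 were the exceptions. Some of these clusters are shared with other genes. Among the 11, ZNF665 (-0.18), ZNF528 (-0.18) and IGFBP2 (-0.41) had smaller log2 fold changes than ZNF43, and the first 2 were dim. The rest ran from -1.07 (ZNF85) to -2.41 (ZNF429). ZNF43 was thus below both siCON arrays on its own array, but so it was on 7 of the 13 other knockdown arrays. The value lay within the range of knockdowns of other genes (SD 0.37, n = 13), so it does not mark this array as the ZNF43 knockdown.

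**Figure D1:**
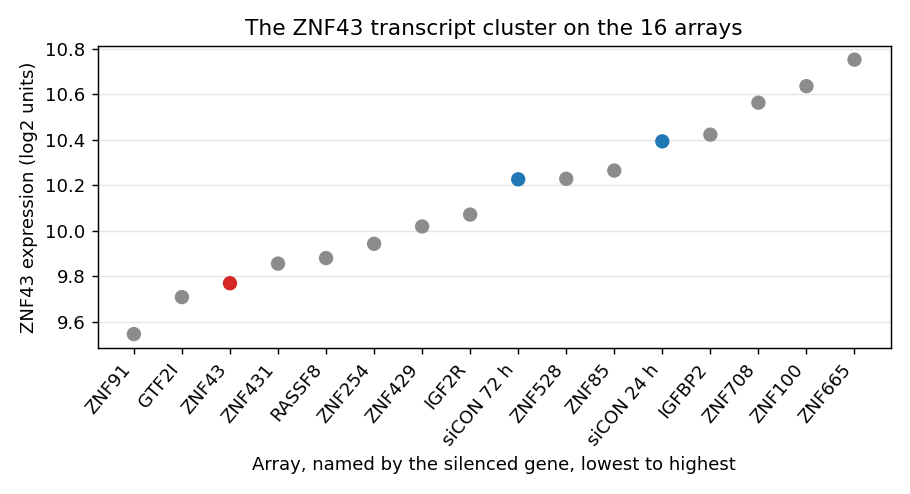
Expression of the ZNF43 transcript cluster (y axis, log2 units) on each of the 16 arrays (x axis, named by the silenced gene and ordered from lowest to highest), with the ZNF43 array in red and the siCON arrays in blue. The ZNF43 array, at 9.77, is below both siCON arrays and above the ZNF91 and GTF2I arrays.

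The other zinc finger genes of the same chromosomal cluster were not lower as a group on the ZNF43 array. Many of these genes share probes, so that 21 transcript clusters, with that of ZNF43 included, named 1 or more zinc finger genes of the cluster in 19p12. None of the 21 was at its lowest on the ZNF43 array, but only 3.71% of all clusters were, so this is near the share over all clusters. Their median log2 fold change was 0.02 on the ZNF43 array, against -0.76 on the ZNF91 array, where 9 of them were at their lowest. On the ZNF43 array 10 of the 21 were below both siCON arrays, against 17 on the ZNF91 array. The share of all clusters below both siCON arrays is not given here, so the 10 is set beside the ZNF91 array only. The ZNF43 cluster and the cluster of the ribosomal protein gene RPS16, shared with ZNF90 and ZNF93, were counted in the 9 and in the 10. The cluster of ZNF91 itself was also counted in the 9. The cluster shared by ZNF100 and ZNF430 was at 8.16 on the ZNF43 array, above both siCON arrays (7.72 and 7.50) and above the highest other knockdown (7.91). The cluster shared by ZNF93, ZNF90, ZNF626 and ZNF56P was also above all other arrays, at 10.97 against at most 10.74. These were the only 2 of the 21 above all other arrays, beside 3.98% of all clusters. Among the other silenced genes, RASSF8 was slightly above all other arrays (8.70, siCON 8.30 and 8.39), and IGF2R (10.87) and GTF2I (10.94), both measured in shared clusters, were level with siCON (10.91 and 10.95 for IGF2R, 10.93 and 10.88 for GTF2I).

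Of 22011 transcript clusters, 876 (3.98%) were above all 15 other arrays and 817 (3.71%) were below them. The same counts for the 13 other knockdowns ranged from 453 to 4831 above and from 717 to 3085 below. A level at least 1 log2 unit above the siCON mean was reached by 69 clusters (0.313%), where the others had 75 to 271, and a level at least 1 unit below it by 141 (0.641%), where the others had 113 to 856. The 69 became 147 against the 72 h siCON array alone (others 108 to 307), 105 against the 24 h array (others 95 to 426) and 29 without the dimmest clusters (others 36 to 155), and the 141 became 73 without the dimmest clusters (others 53 to 541). For 14232 genes, each represented by its brightest cluster that names it alone, 332 (2.33%) were above all other arrays, 523 (3.67%) were below, 26 (0.183%) were at least 1 unit above siCON and 64 (0.45%) at least 1 unit below. The median log2 fold change over genes was 0.05. Genes that mark the line were high, as the label has it: KIT itself was at 12.96, the chloride channel gene ANO1 at 12.99 and the KIT-dependent transcription factor gene ETV1 at 11.63. For KIT this was the lowest of the 16 arrays, close to the next (12.99) but below both siCON arrays (13.42 and 13.28). The 17 measured genes of a KIT and GIST identity list had a median log2 fold change of 0.02 (others -0.05 to 0.19). Marker lists of other cell types were near or slightly above siCON, with mean log2 levels on the ZNF43 array, siCON arrays and other knockdowns of 6.03, 5.85 (both) and 5.93 to 6.31 for 8 blood cell markers, 6.04, 5.87 to 5.88 and 5.85 to 6.39 for 8 endothelial markers, and 7.12, 7.14 to 7.35 and 7.06 to 7.56 for 10 epithelial markers.

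The clearest feature of the ZNF43 array was a low level of genes of antigen presentation and of the interferon-gamma response. Genes were ranked only if bright enough and named alone by a cluster. Of the 15 ranked genes furthest below all other arrays, those known for these functions were HLA-DPA1, HLA-DPB1, HLA-DRA and CD74 of the MHC class II pathway, IFI30, CXCL10, GBP4, WARS1, PLAAT4 and IL32. The ranking used these values, so this is a description. HLA-DPA1, HLA-DPB1, HLA-DRA and GBP4 were under the brightness limit of 6.80 on the ZNF43 array and were ranked through their level on the other arrays. MHC class II molecules are dimers of an alpha and a beta chain that display peptides taken up from outside the cell. Their genes are switched on in non-immune cells mainly through interferon-gamma, by way of the coactivator CIITA, which acts with factors bound at the X and Y boxes of their promoters. Many other interferon targets carry an interferon-stimulated response element, the site of the IRF and STAT-IRF9 factors, or a gamma-activated site bound by STAT dimers.

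The promoters of CXCL10, WARS1 and HLA-DPB1, and of the class I gene TAP1, are shown to place letters found in these elements beside the values that follow. The sequences are the 250 bases before the start in the RefSeq promoter table (GRCh38.p14), in lower case, written 5′ to 3′ on the gene's strand. Capitals mark GAAA, any 2 bases and GAAA, the letters of an interferon-stimulated response element, in CXCL10 and WARS1, and their reverse complement, in 2 overlapping copies, in TAP1. In HLA-DPB1 they mark CCAATC, which holds the CCAAT core that the Y box factor NF-Y binds. Whether the marked copy is the Y box of this gene was not tested, and a further CCAAT, as its reverse complement attgg, stands before it. The CXCL10 and WARS1 sequences also hold CCAATC or its reverse complement, left in lower case, so these letters do not set HLA-DPB1 apart. WARS1 and TAP1 each have 2 promoters in the table, of which 1 is shown.
CXCL10, chr4:76023498-76023747, minus strand: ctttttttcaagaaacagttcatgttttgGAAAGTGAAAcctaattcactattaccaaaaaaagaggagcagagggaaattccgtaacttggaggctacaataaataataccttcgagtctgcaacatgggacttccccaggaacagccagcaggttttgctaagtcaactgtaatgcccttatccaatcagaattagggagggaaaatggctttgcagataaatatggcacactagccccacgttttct
WARS1, chr14:100375348-100375597, minus strand: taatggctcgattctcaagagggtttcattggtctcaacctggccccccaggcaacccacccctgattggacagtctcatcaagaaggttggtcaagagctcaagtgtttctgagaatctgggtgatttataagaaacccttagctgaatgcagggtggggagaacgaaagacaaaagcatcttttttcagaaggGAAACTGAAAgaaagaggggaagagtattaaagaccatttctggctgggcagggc
TAP1, chr6:32853705-32853954, minus strand: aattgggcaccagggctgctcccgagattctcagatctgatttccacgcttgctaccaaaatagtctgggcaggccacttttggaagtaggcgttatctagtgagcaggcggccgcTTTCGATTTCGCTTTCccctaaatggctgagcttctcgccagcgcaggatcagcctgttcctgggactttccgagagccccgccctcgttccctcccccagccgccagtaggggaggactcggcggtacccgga
HLA-DPB1, chr6:33075740-33075989, plus strand: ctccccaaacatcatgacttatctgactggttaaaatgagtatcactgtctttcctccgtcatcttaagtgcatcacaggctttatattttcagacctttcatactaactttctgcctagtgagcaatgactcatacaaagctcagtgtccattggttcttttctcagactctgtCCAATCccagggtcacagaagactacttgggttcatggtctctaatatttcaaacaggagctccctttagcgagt
Over 300-base windows with 50 bases after the start, the response element letters occurred on either strand in 3.57% of 35116 promoters and CCAATC in 15.1%. Counted per gene over any of its promoters, this was 4.22% and 21.9% of 11386 measured genes. Of the 15 genes furthest below, 12 had a promoter in the table, and the response element letters were present for 3 of them (CXCL10, GBP4 and WARS1) and CCAATC for 4 (CXCL10, HLA-DPB1, WARS1 and HCP5). Of the 15 genes furthest above, 13 had a promoter, with 1 and 4 matches. A match describes the letters only.

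HLA-DPA1, the alpha chain of HLA-DP, was at 6.55 on the ZNF43 array, against 8.26 and 8.16 on the siCON arrays and 7.81 to 9.28 (median 8.40) on the other knockdowns. The next array was 1.26 log2 units above it, the widest gap of any named gene, and it was 3.16-fold below the siCON mean. Its partner HLA-DPB1 was at 6.79 (siCON 8.16 and 8.03, others 7.90 to 9.18, median 8.36), with a gap of -1.12. The alpha chain of HLA-DR, HLA-DRA, was at 5.85 (siCON 7.36 and 7.20, others 6.89 to 8.22, median 7.44), with a gap of -1.05. CD74, the invariant chain that guides class II dimers to the endosome, was at 7.57 (siCON 8.51 and 8.40, others 8.14 to 9.36, median 8.67). In each of these genes the ZNF43 array lay apart from 15 arrays that overlapped one another, and the siCON arrays differed by no more than 0.16. IFI30, a thiol reductase that opens disulfides in endosomal antigens, was at 8.47 (siCON 10.03 and 9.53, others 9.65 to 11.14, median 10.08), a log2 fold change of -1.31.

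The rest of the class II machinery did not share this level. CIITA was at 7.10, above both siCON arrays (7.01 and 6.90) and below the median of the other knockdowns (7.32). RFX5 (8.06) and RFXAP (7.55), subunits of the complex that binds the X box, and HLA-DOA (7.01), a modulator of peptide loading, were within the range of the other arrays. HLA-DMB, a chain of the peptide editor HLA-DM, was at 5.65, between the siCON arrays (5.62 and 5.97) and below every other knockdown (5.76 to 6.59). The HLA-DRB clusters, shared between near-identical genes, were dim on every array. Of 12 measured genes in a class II list assembled after these values were seen, 5 were below all other arrays and 4 were at least 1 unit below siCON. None was above all other arrays. Over all genes these shares were 3.67%, 0.45% and 2.33%. The list holds genes that the ranking had already picked, so its counts describe the same values. The list median was -0.44 against siCON, while on the 13 other knockdowns it ran from -0.04 to 0.60.

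**Figure D2:**
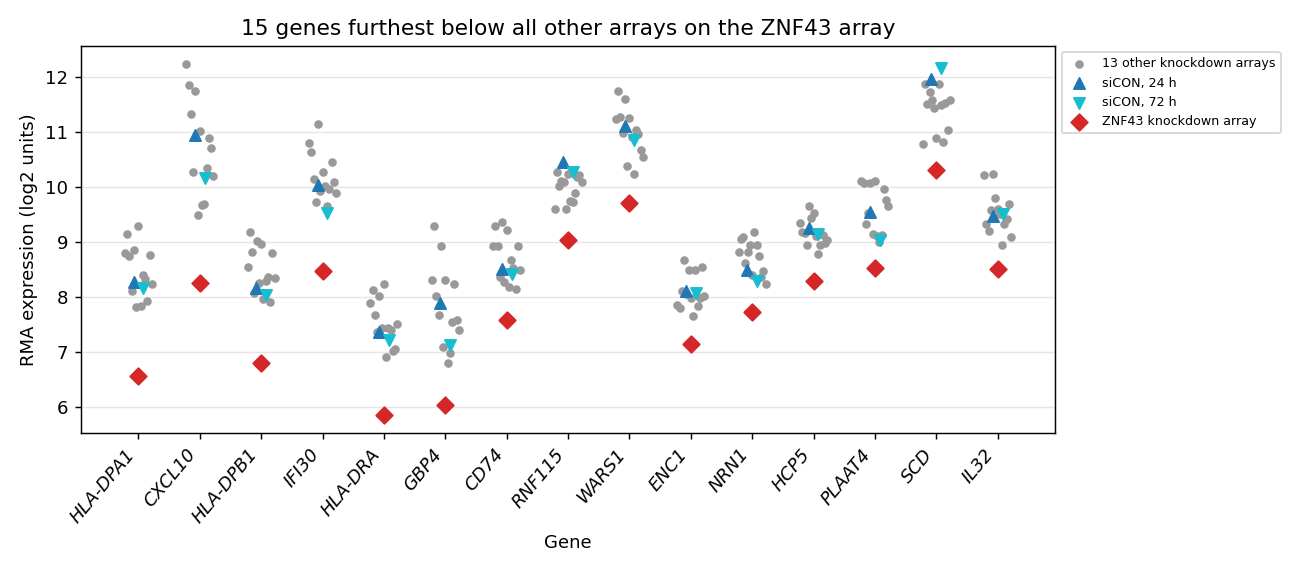
RMA expression (y axis, log2 units) of the 15 genes furthest below all other arrays on the ZNF43 array (x axis), among genes bright enough to be ranked. The ZNF43 array is shown as red diamonds, siCON as blue and cyan triangles and the 13 other knockdowns as grey points. The red diamond of HLA-DPA1, at 6.55, is 1.26 below the next array, and that of IL32, at 8.50, is 0.44 below it.

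CXCL10, a chemokine that draws CXCR3-bearing T cells, was the named gene furthest below siCON. It was at 8.25 on the ZNF43 array, 10.94 and 10.16 on siCON at 24 h and 72 h, and 9.48 to 12.24 (median 10.70) on the other knockdowns, so that it was 4.93-fold below the siCON mean. It also varied widely among the other knockdowns (SD 0.88, n = 13), and its siCON arrays were 0.78 apart. Measured against the 72 h siCON array alone, it was lower by 1.91. GBP4, an interferon-induced guanylate-binding GTPase, was at 6.03 (siCON 7.88 and 7.12, others 6.79 to 9.28, median 7.67), and again the siCON arrays were 0.76 apart. WARS1, the cytoplasmic tryptophanyl-tRNA synthetase and a classical interferon-gamma target, was at 9.70 (siCON 11.10 and 10.84, others 10.23 to 11.74, median 10.97). For all of these the ZNF43 value stood below both siCON times and below every other knockdown.

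A pair of further genes of this group were bright enough to be ranked: PLAAT4, a phospholipase-like tumor suppressor induced by retinoids and interferon, at 8.52 (siCON 9.54 and 9.02, others 8.996 to 10.11, median 9.65), and IL32, an inflammatory cytokine, at 8.50 (siCON 9.47 and 9.50, others 8.94 to 10.23, median 9.51). Dimmer genes went the same way. CXCL9, a second CXCR3 ligand, was at 4.71 (siCON 5.64 and 5.53, others 5.41 to 6.40), IDO1, which degrades tryptophan, at 4.80 (siCON 5.59 and 5.39, others 5.25 to 7.04), and CD274, which encodes PD-L1, at 4.98 (siCON 5.70 and 5.93, others 5.18 to 6.16). Of 35 measured genes in an interferon-gamma list assembled after the values were seen, 14 were below all other arrays, none above, and the median log2 fold change was -0.29, beside 3.67% and 2.33% of all genes and a median of 0.05. On the other knockdowns the list median ran from -0.22, on the RASSF8 array, to 0.36.

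The signalling genes of the pathway were near the other arrays. The receptor genes IFNGR1 (8.47) and IFNGR2 (9.14) and the kinase genes JAK1 (11.36) and JAK2 (6.62) were within the range of the others. IRF1, the transcription factor that interferon-gamma induces early, was at 8.75, below both siCON arrays (9.07 and 9.004) and above only 1 array (8.69 to 9.80 on the other knockdowns). SOCS1, the feedback inhibitor of the pathway, was at 8.44 (siCON 8.80 and 8.76, others 8.44 to 9.13). IFNG itself was dim throughout, at 3.72 on the ZNF43 array and 3.58 and 3.62 on siCON.

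The MHC class I pathway, which displays peptides made in the cytosol, was lower by smaller amounts. TAP1, a subunit of the peptide transporter, was at 9.10 (siCON 10.14 and 9.78, others 9.30 to 10.82, median 10.21). PSMB8, a catalytic subunit of the immunoproteasome, was at 7.32 (siCON 8.28 and 8.04, others 7.53 to 8.40, median 8.11), and the cluster shared by PSMB9 and PSMB8-AS1 was at 8.64 (siCON 9.64 and 9.33, others from 9.24). The proteasome activator PSME1 (9.27), the class I heavy chains HLA-E (9.15) and HLA-F (7.68), the class I coactivator NLRC5 (7.29), the immunoproteasome subunit PSMB10 and TAP2 (8.48) were also below all other arrays. B2M, the light chain of class I, was at 10.48 and within the range of the others (10.35 to 11.15). Of 15 measured genes in a class I list assembled after the values were seen, 8 were below every other array and none was above, beside 3.67% and 2.33% of all genes, with a median log2 fold change of -0.33 on the ZNF43 array against -0.11 to 0.49 on the other knockdowns. Along chromosome 6, 13 of the 87 measured genes between HLA-F and HLA-DPB1 (14.9%) were below all other arrays, against 25 of 673 (3.71%) elsewhere on the chromosome, and the median log2 fold change of the 87 was 0.05. Both ends of this interval are genes already named as below all other arrays, and others of these, such as TAP1, lie within it. The share of 14.9% therefore describes the same values again.

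Genes of the type I interferon response, which answer to interferon-alpha and interferon-beta and overlap with the set above, were mixed. Of 36 measured members of a general interferon list, 3 were below all other arrays (CXCL10, SAMD9L and OAS2), 1 was above (HERC5, at 9.58 with siCON at 9.51 and 9.37 and others at 8.13 to 9.20), and 4 were at least 1 unit below siCON. Over all genes these shares were 3.67%, 2.33% and 0.45%. OAS2, an antiviral oligoadenylate synthetase, was at 6.75 (siCON 8.35 and 7.49, others 6.94 to 8.94, median 7.81). IFIT1, which binds viral RNA, was at 8.80 (siCON 9.25 and 9.04, others 7.71 to 9.09, median 8.54), MX1 at 8.97 (siCON 9.21 and 8.75) and IFI6 at 11.73 (siCON 11.61 and 11.50), all inside the range of the other arrays. The list median was -0.16 on the ZNF43 array, sixth from the lowest of the 14 knockdowns, and it was 0.01 against the 72 h siCON array alone. The siCON arrays themselves differed by a median of -0.36 (72 h minus 24 h) over these genes. For the class II list the siCON arrays differed by -0.10 and for the interferon-gamma list by -0.09, and for the class I list by -0.24, where the list median was -0.25 against the 72 h array alone. The part of the harvest time in these differences was not tested.

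**Figure D3:**
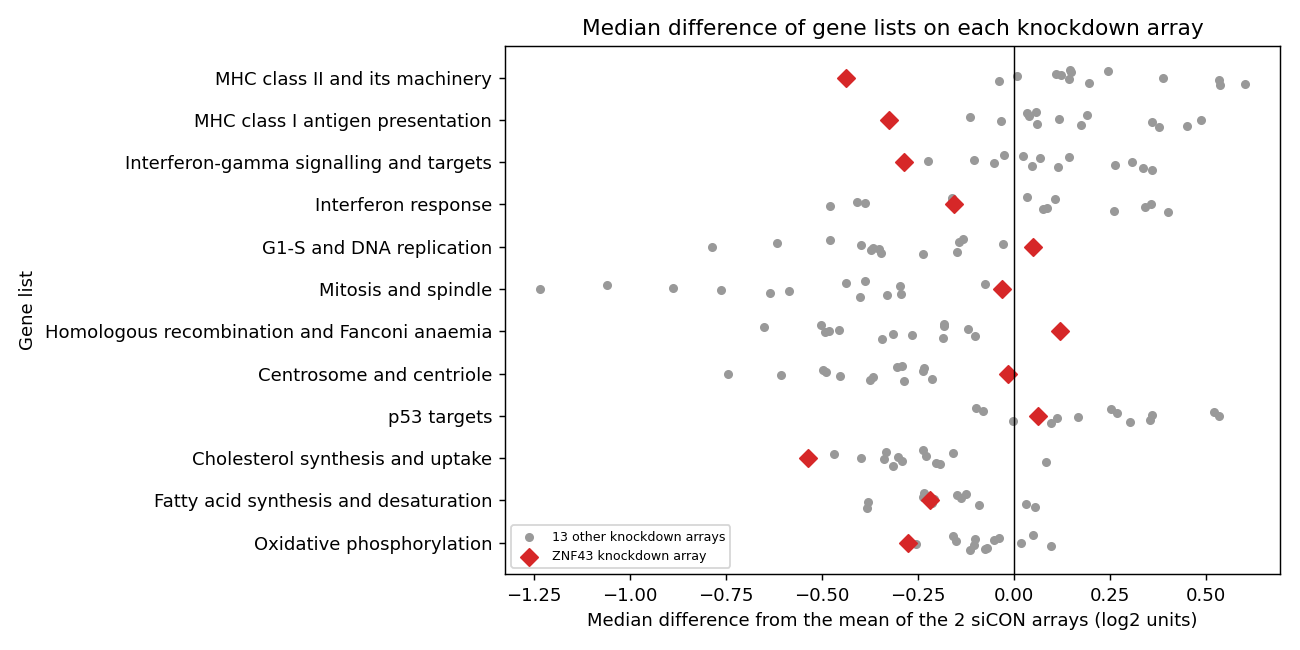
Median log2 fold change from the siCON mean (x axis) of 12 gene lists (y axis) on the ZNF43 array (red diamonds) and the 13 other knockdown arrays (grey points). The ZNF43 array is the lowest of the 14 for MHC class II (-0.44), MHC class I (-0.33), interferon-gamma (-0.29), cholesterol (-0.54) and oxidative phosphorylation genes (-0.28), and the highest for the 4 cell cycle and repair lists.

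Cell cycle genes set the ZNF43 array apart in the other direction: they were near the siCON level there and lower on most other knockdowns. The median log2 fold change of 33 genes of the G1-S transition and DNA replication was 0.048 on the ZNF43 array and -0.79 to -0.03 on the other 13 arrays, of which the ZNF254 array (-0.03) was also near siCON. For 39 genes of mitosis and the spindle it was -0.03 against -1.23 to -0.08, with the ZNF528 array (-0.08) next. All 33 G1-S genes and 38 of the 39 mitotic genes were above the median of the other knockdowns, by medians of 0.37 and 0.42, beside 41.5% of all genes. Above all 15 other arrays were 13 G1-S genes and 2 mitotic genes, beside 2.33% of all genes. None of either list was at least 1 unit from siCON or below all other arrays. Against the 72 h and 24 h siCON arrays alone the mitotic median was 0.07 and -0.15, so its sign depended on the control.

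Cyclin E, which drives entry into S phase, showed this for both of its genes. CCNE1 was at 11.70 on the ZNF43 array, 11.56 and 11.57 on siCON and 10.63 to 11.50 (median 11.15) on the other knockdowns. CCNE2 was at 10.88 against siCON values of 10.87 and 10.79 and others of 9.34 to 10.51 (median 9.73). The ZNF43 array was level with siCON in CCNE2, and all 13 others were lower. E2F2, a transcription factor of the same step, was at 8.37 (siCON 8.16 and 8.13, others 7.46 to 8.15). GINS1, a subunit of the replicative helicase complex, was at 10.83 (siCON 9.99 and 9.87, others 9.50 to 10.63, median 10.13), a log2 fold change of 0.90, the largest in the list. Among mitotic genes, CDK1, the kinase that starts mitosis, was at 10.22 (siCON 10.53 and 10.33, others 8.84 to 10.15), and NDC80, which couples kinetochores to microtubules, was at 8.49 (siCON 8.59 and 8.41, others 7.15 to 8.23). NUSAP1, a spindle protein, was at 10.70 and above every other array (siCON 10.50 and 10.45, others to 10.56).

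**Figure D4:**
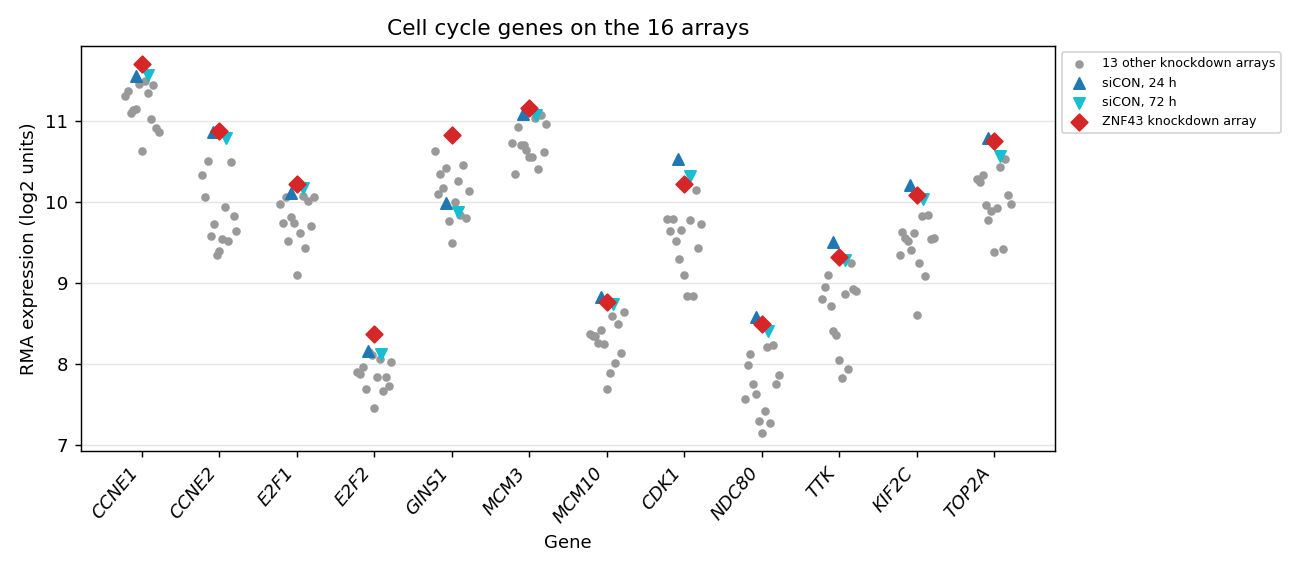
RMA expression (y axis, log2 units) of 12 cell cycle genes (x axis) on the ZNF43 array (red diamonds), siCON (triangles) and the 13 other knockdowns (grey points). The ZNF43 value of CCNE2, 10.88, sits at the siCON level with all other knockdowns at or below 10.51, and that of CDK1, 10.22, is above all of them.

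Of 830 genes that were below both siCON arrays in all 13 other knockdowns, 94 were not below both on the ZNF43 array. In transcript clusters this was 133 of 1127, where other arrays were the sole exception for 14 to 200, the highest being the ZNF429 array. Among the G1-S genes 12 were lower in all 13 others and 5 of these were not lower on the ZNF43 array, and among the mitotic genes it was 6 of 11. The gene furthest above the other knockdowns was PLCE1, a phospholipase C, at 9.64 with siCON at 9.19 and 9.50 and the others at 7.97 to 9.05. CENPK, a protein of the inner kinetochore, followed at 9.37 (siCON 9.50 and 9.09, others to 8.90). In the opposite direction, of 1132 clusters above both siCON arrays in all 13 other knockdowns, 73 were not above both on the ZNF43 array, a count within that of the other arrays (14 to 882, with 73 on the GTF2I array). NPPC, which encodes C-type natriuretic peptide, was one, at 7.14 with siCON at 7.17 and 7.40 and the others at 7.61 to 9.41, and ECM1, an extracellular matrix protein gene, was another, at 7.70 with siCON at 7.94 and 7.56 and the others at 8.04 to 8.75.

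Genes of recombination repair and the centrosome, in lists assembled after the values were seen, lay with the cell cycle genes. BRIP1, a helicase that works with BRCA1, was at 10.13 (siCON 9.76 and 9.57, others 8.72 to 9.73, median 9.51), and CEP128, a centriole appendage protein, was at 7.89 (siCON 7.55 and 7.35, others 6.66 to 7.55, median 7.32). RMI2, a partner of the BLM helicase, was at 10.55 (siCON 9.86 and 9.69, others 9.69 to 10.30). Of 26 measured repair genes 11 were above all other arrays, and of 19 centrosome genes 4 were, with none below in either list, beside 2.33% of all genes above and 3.67% below. The inhibitor of cyclin-dependent kinases CDKN1A, a p53 target, was at 10.27, its lowest level on any array (siCON 11.01 and 10.88, others 10.49 to 11.55). The p53 target TP53I3 was at 7.83 and also lowest (siCON 8.33 and 8.56, others from 8.09), but the 23 measured p53 targets had a median log2 fold change of 0.06, inside the range of the other knockdowns (-0.10 to 0.53).

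Among genes bright enough to be ranked, the 15 furthest above all other arrays had gaps of 0.26 to 0.43. Those of the 15 furthest below were 0.44 to 1.26 in size. This difference holds for the ranked genes only. Over all transcript clusters, dim and shared ones included, 16 were above and 18 below all other arrays by more than 0.5. CTSV, a lysosomal cysteine protease, was at 8.52 (siCON 8.08 and 7.92, others 7.22 to 7.98, median 7.65). RPS6KA5, the kinase MSK1 that phosphorylates histone H3, was at 8.66 (siCON 7.58 and 7.45, others 6.91 to 8.23, median 7.71), 2.22-fold above the siCON mean. FBN2, the microfibril protein fibrillin-2, was at 12.18 (siCON 11.42 and 11.20, others 11.15 to 11.76, median 11.56). These values were 0.42 to 0.43 above the next array. NAP1L1, a histone chaperone, was at 9.23 (siCON 8.22 and 8.10, others 7.92 to 8.97, median 8.24), a log2 fold change of 1.07. CKB (9.28), ICA1L (7.76), NAPEPLD (9.09), RPS20P27 (6.94), ADGRL1 (10.34), TAS2R19 (9.55), KLHL42 (9.70) and FOXRED2 (9.66) completed the group with log2 fold changes of 0.38 to 0.77. CSNK1G1 (7.75, gap 0.42) and CEP128 (gap 0.34) each had a second cluster, and the mean of both clusters had a gap of 0.15 for either gene.

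**Figure D5:**
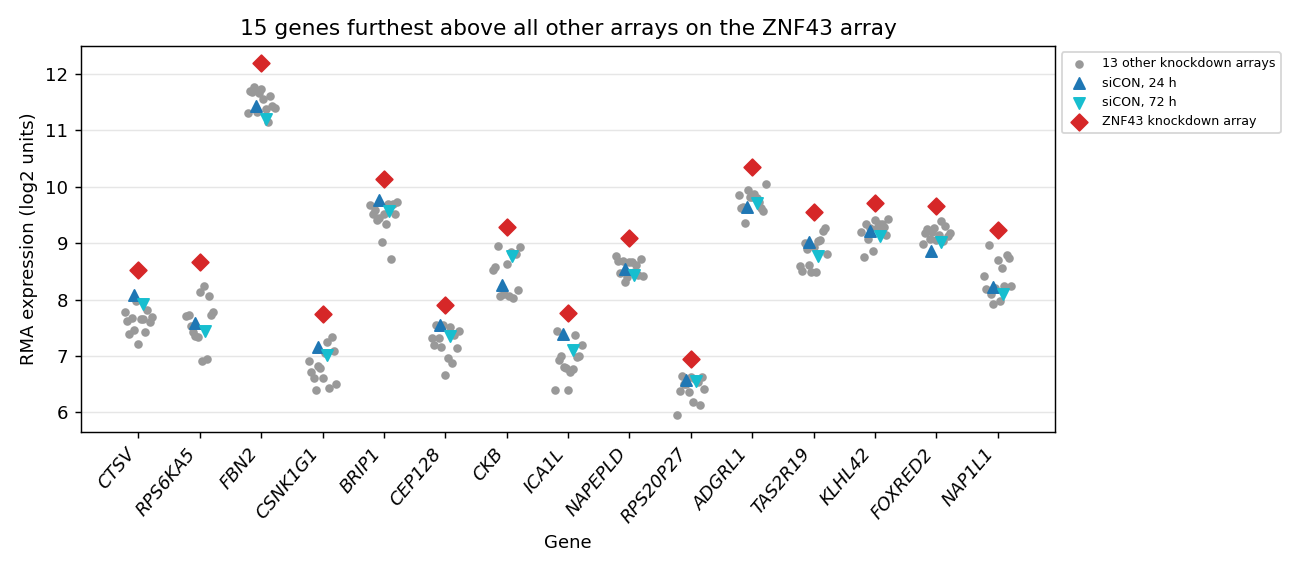
RMA expression (y axis, log2 units) of the 15 genes furthest above all other arrays on the ZNF43 array (x axis), among genes bright enough to be ranked. The ZNF43 array is shown as red diamonds, siCON as triangles and the 13 other knockdowns as grey points. The gaps run from 0.43 for CTSV to 0.26 for NAP1L1, smaller than the gap of 1.26 for HLA-DPA1.

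Genes of cholesterol synthesis and SCD were low on the ZNF43 array. SCD, the stearoyl-CoA desaturase that makes monounsaturated fatty acids, was at 10.30 (siCON 11.96 and 12.15, others 10.77 to 11.86, median 11.50), 3.37-fold below the siCON mean. All 13 other knockdowns were also below both siCON arrays for SCD, and the ZNF43 array went 0.46 further than the lowest of them. In the cholesterol list the median log2 fold change of 21 measured genes was -0.54, the lowest of the 14 knockdowns (others -0.47 to 0.08). In this list 6 genes were below all other arrays, beside 3.67% of all genes: SCD, STARD4, MVK, LSS, DHCR7 and NSDHL. LSS, which closes squalene epoxide to lanosterol, was at 9.02 (siCON 9.77 and 10.01, others 9.07 to 9.90), and apart from SCD these gaps were 0.14 or smaller. Of 18 measured genes of fatty acid synthesis and desaturation only SCD, which is in both lists, was below all other arrays, again beside 3.67% of all genes. The median of the 18 was -0.22 (others -0.38 to 0.05). Of 32 genes of oxidative phosphorylation, 28 were below the siCON mean and 3 were below all other arrays (NDUFB3, NDUFB10 and NDUFA8), beside 41.9% and 3.67% of all genes, with a median of -0.28 (others -0.26 to 0.10) beside 0.05 over all genes. Of 27 proteasome genes 26 were below the siCON mean, again beside 41.9% of all genes, with a median of -0.30, inside the range of the other knockdowns (-0.40 to -0.04).

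The other genes furthest below had no common list. RNF115, a ubiquitin ligase, was at 9.03 (siCON 10.44 and 10.26, others 9.59 to 10.26, median 10.08), ENC1, an actin-binding protein, at 7.13 (siCON 8.10 and 8.07, others 7.65 to 8.67, median 8.01), and NRN1, a neurite outgrowth protein, at 7.73 (siCON 8.49 and 8.28, others 8.24 to 9.18, median 8.80). HCP5, a long non-coding RNA of the MHC region, was at 8.28 (siCON 9.25 and 9.15, others 8.78 to 9.66, median 9.12).

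Several of the largest differences from siCON were shared by the other knockdowns. Among genes bright enough to be ranked, the 5 lowest log2 fold changes were those of CXCL10, POSTN, MAP2, TGFB3 and SCD. POSTN, a matrix protein, was at 8.11 (siCON 9.64 and 10.64, others 7.24 to 8.71, median 7.86), and TGFB3, a ligand of the transforming growth factor beta family, at 7.72 (siCON 9.27 and 9.68, others 7.25 to 8.41, median 7.79). MAP2, which binds microtubules in neurons, was at 7.31 (siCON 9.10 and 9.09, others 6.75 to 8.39). In each of these the ZNF43 array lay within the other knockdowns, which were all below both siCON arrays. The 5 highest log2 fold changes, 1.28 to 1.58, were those of CD248 (9.31, siCON 7.93 and 7.53), CCDC80 (9.59), SMOC2 (9.34, siCON 8.25 and 7.50), PAPSS2 (9.75) and SLFN5 (8.39). CD248, an endosialin of stromal cells, and SMOC2, a matrix protein, were also above all other arrays, by 0.15 and 0.17.

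The study had picked a few genes for a shared difference in every knockdown, on these same arrays, so their direction on the ZNF43 array is no independent evidence. NEDD9, a focal adhesion scaffold, was at 8.33 (siCON 9.43 and 9.45, others 7.73 to 9.02), DDAH1 at 8.05 (siCON 9.48 and 9.83), ENPP5 at 5.30 (siCON 7.33 and 7.41), SI at 4.44 (siCON 5.86 and 5.90) and the cluster shared by C2orf15 and MRPL30 at 6.42 (siCON 8.24 and 8.08). TMCO1, a calcium channel of the endoplasmic reticulum, was higher, at 11.31 (siCON 10.23 and 9.99, others 11.12 to 11.77). The cluster that names MRPL30 alone was at 9.80 (siCON 10.33 and 10.24, others 9.40 to 10.39), with the ZNF429 array above both siCON arrays. None of these clusters was beyond the range of the other arrays. Of the 64 genes at least 1 unit below siCON on the ZNF43 array, 29 were below both siCON arrays in all 13 other knockdowns and 18 were below all other arrays, and of the 26 at least 1 unit above, 16 and 8 were so in the opposite direction. Over all 14232 genes, 830 were below and 899 above both siCON arrays in all 13 others, and 3.67% were below and 2.33% above all other arrays. The 64 and the 26 were picked by their level on this array, so the 18 and the 8 are a description.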

How the data were processed

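RNA from GIST-T1 cells was hybridised to 16 Affymetrix Human Exon 1.0 ST arrays. The authors used RMA from the oligo package on core probes at the gene level and deposited log2 expression values for 22011 transcript clusters. The submitters' processing notes name hg19, and tool versions are not given in the sources used here. Arrays hold no read depth, so their number limits the precision, and no 2 arrays held identical values. Values were used as deposited.

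Gene names came from the platform annotation: 14432 clusters carried 1 symbol, 2408 several and 5171 none. For 14232 genes the brightest cluster naming that gene alone was used. For each cluster the ZNF43 array was compared with the mean of 2 siCON arrays and with the range of the 15 other arrays. With 1 array no test was run, and the measures were tested on simulated data. The threshold of 1 log2 unit follows the study's methods.

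Genes were named by rule: among clusters with 1 symbol and a level (the higher of the ZNF43 value and the median of the others) of at least 6.80, the 15 with the largest gap in each direction and the 5 largest and 5 smallest differences, then the silenced genes, the genes of the study's shared list, and members of each list with the largest gaps (at most 3 each way) or, with none, the largest difference. Other genes, among them TAP1, CXCL9, CIITA and the signalling genes, were chosen after their values were seen. The members and lists, 6 of which were assembled after the values were seen, were chosen with earlier results of these data known. Alternatives were each siCON array alone, median-centred and quantile-normalized arrays, removal of dim clusters, each other array left out, other thresholds, averaging the clusters of a gene and removal of a loess trend (span 0.3). Promoter sequences were from RefSeq (GRCh38.p14). Software was matplotlib 3.10.9, statsmodels 0.14.6, scipy 1.17.1, pandas 2.3.3 and numpy 2.4.6 under Python 3.11.15.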

Additional observations from a re-analysis of the deposited data

Results flagged for a closer look

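On the ZNF43 array 2 gene lists and 9 of the genes described were on the other side of the siCON mean from all 13 other knockdown arrays. The differences were not tested, since the ZNF43 knockdown is 1 array, and several of these genes were named after their values were seen. The median log2 fold change of the G1-S and DNA replication genes was 0.048 on the ZNF43 array and -0.79 to -0.03 on the others. Its sign rests on a value close to 0, since it was 0.0023 against the 24 h siCON array alone and 0.0042 with median-centred arrays. The median of all genes was 0.047. For the homologous recombination and Fanconi anaemia genes, a list assembled after the values were seen, it was 0.12 against -0.65 to -0.10. CTSV had a log2 fold change of 0.52 on the ZNF43 array and of -0.78 to -0.02 on the others. Above the siCON mean on the ZNF43 array and below it on all others were also PLCE1 (0.30, others -1.37 to -0.29), HERC5 (0.14, others -1.31 to -0.24), CCNE1 (0.13, others -0.93 to -0.07), DICER1 (0.10, others -1.10 to -0.17), CENPK (0.076, others -1.47 to -0.40) and CCNE2 (0.048, others -1.49 to -0.32). In the opposite direction were NPPC (-0.15, others 0.32 to 2.12) and ECM1 (-0.049, others 0.29 to 0.997). CENPK and ECM1 each lay between the siCON arrays on the ZNF43 array, so the sign of these genes depended on the control.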

How the results depend on the processing

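All 30 gaps of the named genes kept their direction when the arrays were median-centred or quantile-normalized, and the ZNF43 cluster had a log2 fold change of -0.62 to -0.46 under the alternatives run. Counts past 1 log2 unit depended on the control and on dim clusters. Without the dimmest clusters, 29 in place of 69 were at least 1 above siCON, 73 in place of 141 at least 1 below, 8 in place of 31 were also above all other arrays, and 22 in place of 38 were also below them. Against 1 siCON array in place of 2, 105 to 147 clusters were at least 1 above and 169 to 184 at least 1 below. Leaving out each other array in turn, 31 to 56 clusters were both above all others and at least 1 above, 38 to 49 both below, 893 to 1039 above all others and 840 to 960 below. The 56 and the 147 were without the 24 h siCON array and the 105 without the 72 h array. With a threshold of 0.5 the joint counts were 256 and 220, and with 1.5 they were 7 and 6. The class II list median was -0.72 without dim clusters, a choice made after seeing the data. Of 108 values of list medians this was the only one that moved by more than the spread between the other knockdowns, but the signs of the interferon, mitotic and centrosome medians, all near 0, depended on the control or scaling: the lowest and highest were -0.34 and 0.01, -0.15 and 0.07, and -0.08 and 0.11. No paired analysis was possible because the result comes from no test and each knockdown is 1 array.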

Other observations

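Several genes not described with values so far were beyond all other arrays on the ZNF43 array. MYOCD, the coactivator of the smooth muscle programme, was dim but at 6.50 on the ZNF43 array (siCON 5.71 and 5.93, others 5.64 to 5.91). TNC, a matrix protein, was at 6.10, just below all other arrays (siCON 7.19 and 7.94, others 6.15 to 7.48). DICER1, the nuclease that cuts microRNA precursors, was at 11.93, level with siCON (11.88 and 11.78) while all 13 other knockdowns were lower (10.72 to 11.66). ATP6V0D1, a subunit of the lysosomal proton pump, was at 11.59, below all others (siCON 12.17 and 12.26, others from 11.83).

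By chromosome, 51 of 948 measured genes on chromosome 19 (5.38%) were below all other arrays and 7 (0.738%) were above them, beside 3.67% and 2.33% of all genes, and their median log2 fold change was 0.06. These were the highest share below and the lowest share above of any chromosome. Chromosomes 21 (5.21%) and 6 (5%) had nearly the same share below, and chromosome 18 (0.939%) nearly the same share above.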
